A study of Homo sapiens with 172 samples.

Results

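The antigen receptor loci TRA/TRD, TRB, TRG, IGK and IGH were followed in lamina contact maps of single KBM7 cells. They were taken by hg19 position as 44 of the 30376 bins of 100 kb in the deposited table. TRA/TRD, with the T cell receptor alpha and delta genes, was chromosome 14 from 22000001 to 23100000 (11 bins). TRB, the beta locus, was chromosome 7 from 142000001 to 142500000 (5 bins), and TRG, the gamma locus, was chromosome 7 from 38200001 to 38500000 (3 bins). IGK, the immunoglobulin kappa light chain locus, was chromosome 2 from 89100001 to 90300000 (12 bins). IGH, the heavy chain locus, was chromosome 14 from 106000001 to 107300000 (13 bins). Each locus was set against the 1 Mb on either side. The limits are rounded, so an end bin may also hold part of a neighbouring gene. The lambda light chain locus was not analysed here.

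KBM7 is a near-haploid human line from a chronic myeloid leukaemia. All 172 labelled samples form 1 group of haploid clone 5-5 cells with Dam methyltransferase fused to LaminB1, a protein of the nuclear lamina under the inner nuclear membrane. The fusion was stabilised with 0.5 nM Shield1 for 15 h, and single cells were sorted from the smallest 2% of those carrying both colours of the Fucci cell cycle reporter. Dam methylates the adenine of GATC in DNA near the lamina, and DpnI, which cuts only methylated GATC, releases the fragments that are sequenced. There was no untreated, unfused or lymphoid group and only 1 clone, so no test between groups was possible, and standard deviations (SD) below describe the spread between cells of 1 culture. The files hold no expression values, so the myeloid identity of the cells was not checked here.

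In developing lymphocytes these loci are assembled by V(D)J recombination, in which the RAG proteins join a variable (V), in some chains a diversity (D), and a joining (J) segment upstream of a constant (C) region. T cells assemble the TR loci and B cells the IG loci, and myeloid cells normally use neither. In mouse lymphocyte precursors, IGH and IGK lie near the nuclear periphery before they are activated and move inward for rearrangement. The loci differ in make-up. In the GRCh38.p14 gene table of RefSeq, TRA/TRD had 49 V segments, 62 J segments and 2 C regions, TRB had 44 V segments, TRG 6 and IGK 44, and IGH had 48 V segments, 27 D segments, 79 V pseudogenes and 9 C regions. By the order of genes in that table, the C regions lay at the high-coordinate end of TRA/TRD and TRB and at the low-coordinate end of TRG, IGK and IGH.

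The loci enclose or adjoin genes of other kinds. Olfactory receptor genes, among them OR4E2, lie within the V end of TRA/TRD, and DAD1, a subunit of the complex that attaches sugars to new proteins, follows its C end. PRSS1 and PRSS2, pancreatic trypsinogens, lie inside TRB. PRSS58 precedes TRB and EPHB6, a receptor of the ephrin family, follows it. STARD3NL precedes TRG and AMPH, which encodes amphiphysin, follows it. RPIA, an enzyme of the pentose phosphate pathway, precedes IGK, and TMEM121 precedes IGH. The promoters of 3 of these genes are printed because every value below counts reads at GATC, shown in capitals, and because they stand at opposite ends of TRA/TRD and inside TRB. They are RefSeq sequences of build GRCh38.p14, from 250 bases before to 50 after the gene start, at chr14:21653585-21653884 (plus strand), chr14:22589175-22589474 (minus strand) and chr7:142770720-142771019 (plus strand).
OR4E2: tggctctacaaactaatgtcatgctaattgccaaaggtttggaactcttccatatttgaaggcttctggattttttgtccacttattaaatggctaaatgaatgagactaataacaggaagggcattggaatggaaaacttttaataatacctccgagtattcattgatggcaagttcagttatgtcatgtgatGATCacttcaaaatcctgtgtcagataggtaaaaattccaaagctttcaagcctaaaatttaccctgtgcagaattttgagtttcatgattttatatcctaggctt
DAD1: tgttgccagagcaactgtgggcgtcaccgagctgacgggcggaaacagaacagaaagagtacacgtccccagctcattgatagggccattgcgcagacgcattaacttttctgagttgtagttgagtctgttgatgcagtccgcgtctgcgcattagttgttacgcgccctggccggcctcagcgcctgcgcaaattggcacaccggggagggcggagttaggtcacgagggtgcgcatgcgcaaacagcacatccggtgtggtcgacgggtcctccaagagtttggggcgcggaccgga
PRSS2: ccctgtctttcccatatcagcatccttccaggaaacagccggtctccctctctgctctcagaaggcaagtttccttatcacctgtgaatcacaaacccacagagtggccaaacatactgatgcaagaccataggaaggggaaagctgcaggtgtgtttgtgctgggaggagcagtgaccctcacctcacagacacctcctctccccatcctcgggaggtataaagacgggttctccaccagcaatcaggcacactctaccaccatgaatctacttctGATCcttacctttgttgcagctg

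OR4E2 and PRSS2 each had 1 GATC in this window and DAD1 had none. Of 35116 promoters in the RefSeq table, 41.7% held at least 1 GATC, which reads the same on both strands. The GC content was 35.0% for OR4E2, 52.0% for PRSS2 and 59.3% for DAD1, against a median of 58.7% over the table. Promoters of V, D, J or C segments were not analysed here. The bins are in hg19 and the promoters in another build, so no promoter was placed in a bin.

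The table gave a ratio of observed over expected reads for 168 of the 172 samples. Samples numbered 86 apart proved to be 1 cell deposited in 2 columns. Every one of the 168 columns correlated best with its partner, and the reads of all 84 pairs differed by less than the sampling noise. The columns of a pair were averaged and counted as 1 cell (n = 84). Reads worked back from the ratios numbered 7134 to 418937 in the deeper column of a cell, with a median of 63700. Contact was called where the averaged ratio reached 1, and contact frequency is the percent of the 84 cells in contact, with an exact Clopper-Pearson 95% interval that covers counting error only. Cells had 27.8% ± 6.55 (SD, n = 84) of all 26414 covered bins in contact. Cell 69 had under 5% of the reads expected on chromosomes 2 and 7. Cells 48, 54 and 56 and cells 63, 69 and 79 had stood apart in earlier work on these data. Without cells 48, 54 and 56 the mean frequencies were 10.4% for TRA/TRD, 7.41% for TRB, 13.2% for TRG, 10.6% for IGK and 1.80% for IGH. Without cells 63, 69 and 79 they were 11.7, 7.90, 14.0, 11.0 and 1.99% in the same order.

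Of the 44 locus bins, 41 carried signal, 1 had no value (chromosome 2 from 89600001 to 89700000) and 2 were 0 in every column (89500001 to 89600000 and 89700001 to 89800000 of chromosome 2). All 3 lay in IGK. Mean contact frequency ran from 2.01% in IGH to 13.5% in TRG. The median frequency over the 41 bins was 4.76%, against 16.7% over all covered bins. Of the 41 bins, 21 (51.2%) had a frequency under 5%, against 36.7% of all covered bins and 38.0, 32.7 and 35.8% of those on chromosomes 14, 7 and 2. IGH gave 13 of these 21 bins. The share under 5% was 18.2% in TRA/TRD, 40.0% in TRB, 33.3% in TRG and 33.3% in IGK, so the pooled excess rests mostly on IGH. A frequency of at least 20% was reached by 4 of the 41, against 47.7% of all covered bins and 47.8, 52.3 and 49.0% on these chromosomes. A frequency of at least 50% was reached by 0 of the 41, against 30.7% of all covered bins and 29.8, 29.6 and 33.9% on these chromosomes. No cell was in contact at 3 of the 41 bins, against 6.19% of all covered bins. In every locus the mean lay below that of the rest of its chromosome, and the number of cells in which this held ran from 64 of 84 for TRG to 83 of 84 for IGH.

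**Figure D1:**
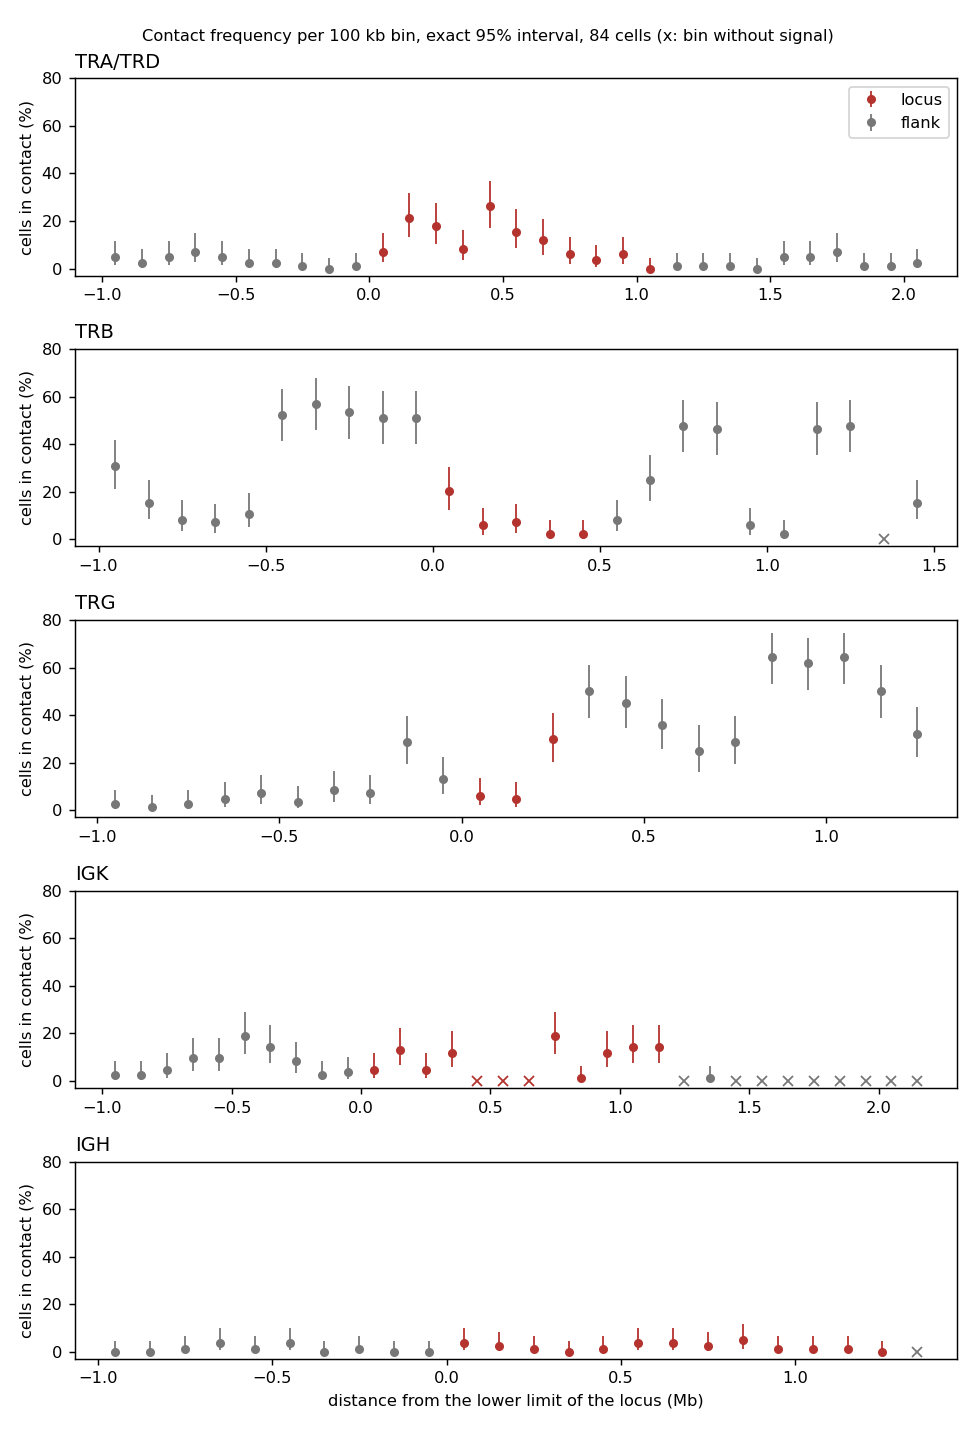
Contact frequency of each 100 kb bin (percent of 84 cells with a ratio of at least 1) with exact 95% intervals, by distance from the lower limit of the locus in Mb, for locus bins (red) and flank bins (grey), with crosses for bins without signal. TRA/TRD stands above low flanks and TRB lies in a dip between flank bins near 50%. TRG lies between a mostly low and a high flank, and IGH and its flank stay under 5%.

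TRA/TRD formed a low hump of contact between flanks that were almost never at the lamina. Its 11 bins were in contact in 11.3% ± 16.1 of cases on average (SD over 84 cells), against 2.80% ± 4.55 in the flanks. The excess of 8.46 points was smaller than its SD over cells of 15.6 points. The locus was higher than its flanks in 36 cells, equal in 32 and lower in 16. All 20 flank bins had a frequency of at most 7.14%.

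Within TRA/TRD contact was most frequent in the low-coordinate part, on the V side. The highest bin, 22400001 to 22500000, was in contact in 22 of 84 cells, or 26.2% (17.2 to 36.9%). The bin 22100001 to 22200000 followed with 18 cells, or 21.4% (13.2 to 31.7%). Their intervals overlap, so their order is not resolved. The highest flank frequency was 7.14% (2.67 to 14.9%). The interval of the highest locus bin lies above that range, while that of 22100001 to 22200000 overlaps it. The lowest bin was the last one, 23000001 to 23100000, at the C end, with 0 of 84 cells. A count of 0 allows 3 cells, or 3.57%, and the upper end of the exact interval is 4.30%. Its expectation, the whole number by which the reads of a bin were divided, was 397, against a median of 316 over covered bins, and 23 cells had a read there. The first bin, 22000001 to 22100000, was in contact in 7.14% (2.67 to 14.9%).

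The hump depended on how far out the flanks reached. Between 1 and 2 Mb below the locus the mean frequency was 32.5%, with a highest bin at 67.9%, and between 1 and 2 Mb above it was 7.74%. With flanks of 2 Mb the flank mean became 11.5% and the difference -0.203 points. TRA/TRD was thus higher than the adjacent 1 Mb on each side and than the 1 to 2 Mb stretch above, but lower than the 1 to 2 Mb stretch below. Against all 24661 windows of 11 covered bins in the genome, 23.6% exceeded their 1 Mb flanks by at least as much.

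TRB showed the opposite profile, a dip between nearby stretches of frequent contact. Its 5 bins averaged 7.62% ± 14.9 in contact, against 30.7% ± 20.1 in the flanks (SD, n = 84). The difference of -23.1 points was larger than its SD over cells of 17.6 points. TRB was lower than its flanks in 76 of 84 cells, equal in 4 and higher in 4. The direction was the same on both sides, at -26.2 ± 21.3 points against the flank below and -19.6 ± 21.4 points against the flank above.

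The lower border of TRB was steep. The 5 flank bins before it ran from 51.2% to 57.1%. The first locus bin, 142000001 to 142100000, was the highest of TRB at 17 of 84 cells, or 20.2% (12.3 to 30.4%), with an interval below that of the preceding bin (40.0 to 62.3%). The next bins had 5 and 6 cells in contact. The lowest were the last 2 bins, 142300001 to 142400000 and 142400001 to 142500000, with 2 cells each, or 2.38% (0.290 to 8.34%). Of these the last lies at the C end.

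Contact returned above TRB in steps. The bin after the locus was at 8.33%, the next at 25.0% and the one after that at 47.6%. The flank above was itself uneven, with 2 further bins at 5.95 and 2.38%, as low as the locus itself, and 1 bin, 143300001 to 143400000, at 0 in every column. The flank below also held low bins, the lowest at 7.14%, farther from the locus than the 5 high ones. Between 1 and 2 Mb below TRB the mean frequency was 7.62%, as low as TRB, and between 1 and 2 Mb above TRB it was 54.6%. Of 25269 windows of 5 covered bins in the genome, 5.71% lay at least as far below their 1 Mb flanks as TRB.

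TRG lay between a flank with mostly infrequent contact and a flank with frequent contact. Its 3 bins averaged 13.5% ± 18.7 in contact, against 26.8% ± 20.0 in both flanks (SD, n = 84), a difference of -13.3 ± 19.2 points. TRG was at 8.73% in odd-numbered cells and 18.3% in even-numbered cells. The mean over both flanks hides 2 unlike sides. TRG stood 5.63 ± 18.2 points above the flank below, which averaged 7.86%, and was higher in 28 cells, equal in 36 and lower in 20. Against the flank above, which averaged 45.7%, the difference was -32.2 ± 30.3 points, and TRG was lower in 66 cells, equal in 13 and higher in 5. The difference from the flank below was smaller than its SD over cells, and that from the flank above slightly larger.

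Contact rose within the rounded limits taken as TRG, between the middle and the last bin, but not only there. In the flank below, the bin 38000001 to 38100000 was in contact in 24 cells, or 28.6% (19.2 to 39.5%). The next, 38100001 to 38200000, was at 13.1%, so contact rose and fell before the rise within TRG. The bin 38200001 to 38300000, at the C end and next to STARD3NL by gene order, was in contact in 5 cells, or 5.95% (1.96 to 13.3%). The middle bin, 38300001 to 38400000, was the lowest with 4 cells, or 4.76% (1.31 to 11.7%). The last bin, 38400001 to 38500000, was the highest with 25 cells, or 29.8% (20.3 to 40.7%), and was followed by a flank bin at 50.0%. The intervals of the lowest and highest bins do not overlap. Since AMPH follows TRG in gene order, the last bin may hold AMPH sequence, and without the first and last bins TRG was at 4.76%. A difference from the flanks at least as far below 0 was found in 13.6% of 25488 windows of 3 bins.

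IGK lies next to the centromere and was the locus with the least usable sequence. Its 9 bins with signal averaged 10.6% ± 15.0 in contact, against 7.03% ± 12.1 in the flanks (SD, n = 84). The difference of 3.55 points was smaller than its SD of 12.6 points, with IGK higher in 31 cells, equal in 36 and lower in 17. Of the 10 flank bins above it, 9 had no value, so the comparison rests on the flank below at 7.62%. That flank averaged 2.96 points under IGK.

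Bins of IGK differed in expectation. Their median expectation was 65, against 316 over all covered bins, and 7 of the 9 were under 100, against 2.59% of covered bins. In a bin with a low expectation 1 read reaches the cutoff. Averaged over the 9 bins this was so in 63.6% of cells, against a median of 13.1% over covered bins. The highest bin, 89800001 to 89900000, was in contact in 16 cells, or 19.0% (11.3 to 29.1%), on 85 reads in all columns. The lowest, 89900001 to 90000000, was in contact in 1 cell on 1 read. With bins of an expectation of at least 100 only, 2 bins of IGK remained, at 8.93%, and the flank bins averaged 8.93% too. In the percent of bin values with any read, IGK differed from its flanks by -6.58 points. These data therefore did not resolve whether IGK and its flanks differ.

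The end bins of IGK differed in expectation as well. The bin 89100001 to 89200000, at the C end, had an expectation of 297 and was in contact in 4 cells, or 4.76% (1.31 to 11.7%). The bin 90200001 to 90300000, at the other end, had an expectation of 65 and was in contact in 12 cells, or 14.3% (7.61 to 23.6%). Their intervals overlap. A single read was enough for a call in 13.1% of cells at the C end and in 56.0% at the other end, and 22 cells had a read in each of them.

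**Figure D2:**
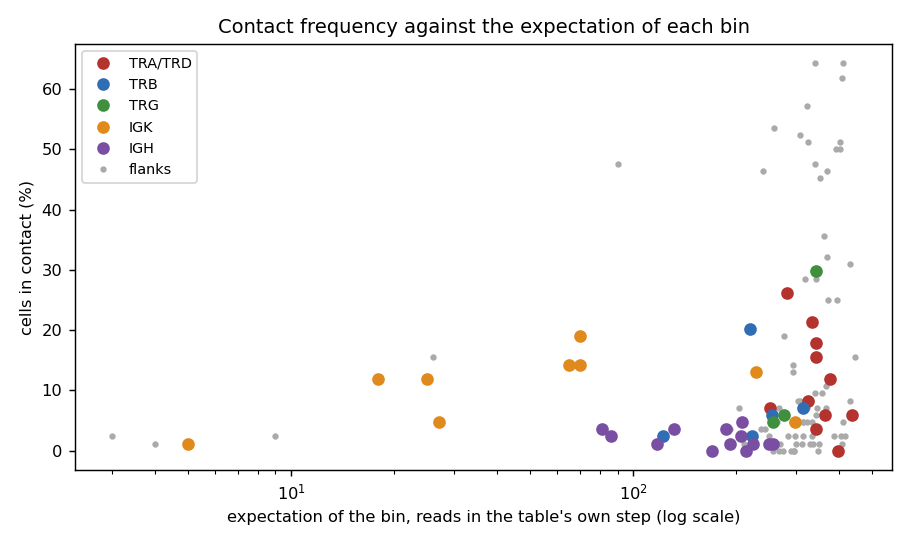
Contact frequency (percent of 84 cells) against the expectation of each bin (log scale), for the bins of each locus (coloured) and all flank bins (grey). Of the 9 IGK bins 7 lie under an expectation of 100, while the bins of TRA/TRD, TRB and TRG all lie above it.

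IGH, at the end of the long arm of chromosome 14, was almost never at the lamina. Its 13 bins averaged 2.01% ± 4.32 in contact, against 1.07% ± 3.48 in the flank below (SD, n = 84). There was no flank above with signal, since the chromosome ends there and the last, shorter bin had no value. The difference of 0.943 points was smaller than its SD of 5.27 points, and 61 of 84 cells were equal. IGH was lower than the rest of chromosome 14, at 28.8% ± 9.90, by 26.8 ± 10.7 points, and lower in 83 of 84 cells.

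No part of IGH stood out. All 13 bins were under 5%. The highest was 106800001 to 106900000 with 4 cells, or 4.76% (1.31 to 11.7%). The lowest were 106300001 to 106400000 and the last bin, 107200001 to 107300000, with 0 cells each. The first bin, 106000001 to 106100000, at the C end, had 3 cells, or 3.57% (0.743 to 10.1%). The intervals of all 13 bins overlap. The 2 bins at the C end had expectations of 81 and 86, and over the 11 others the mean was 1.84%, against 1.07% in the flank. In all, 11.3% of the values of IGH bins were above 0, against 10.7% in its flank and 52.1% in the rest of the chromosome.

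By contact frequency the C end was the lower end in 4 of the 5 loci, IGK among them, whose ends were equal in cells with any read. The C end bin was under the end bin of the V side by 7.14 points in TRA/TRD, 17.9 in TRB, 23.8 in TRG and 9.52 in IGK, whereas in IGH it was 3.57 points higher. The intervals of the 2 end bins lay apart in TRB and TRG and overlapped in the other loci: 0.290 to 8.34% against 12.3 to 30.4% in TRB, and 1.96 to 13.3% against 20.3 to 40.7% in TRG. The end bins of IGH also differed in expectation, at 81 for the C end and 213 for the other. In TRB and TRG the end bin of the V side adjoins a flank bin at 51.2% and 50.0%. Whether their end differences only continue a change in the flank was not tested, nor how often such differences occur elsewhere. With 5 loci the end differences are a description, and the rounded limits decide which genes the end bins hold.

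Within single cells the loci were contacted in part. TRA/TRD had at least 1 bin in contact in 40 of 84 cells, or 47.6% (36.6 to 58.8%), and the most in 1 cell was 7 of 11 bins, in cell 66. IGK had a contact in 38 cells, or 45.2% (34.3 to 56.5%), with at most 5 of 9 bins. TRG had one in 31 cells, or 36.9% (26.6 to 48.1%), with at most 2 of 3. TRB had one in 22 cells, or 26.2% (17.2 to 36.9%), with at most 3 of 5. IGH had one in 18 cells, or 21.4% (13.2 to 31.7%), with at most 3 of 13, in cell 48. These shares are not comparable between loci, which differ in their number of bins. No cell had every bin of a locus in contact. The same held for both flanks of TRA/TRD and the flanks below TRG, IGK and IGH, while 8 cells had all 10 bins of the flank above TRG in contact and the TRB flanks had 1 such cell each, cell 42 below and cell 4 above.

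**Figure D3:**
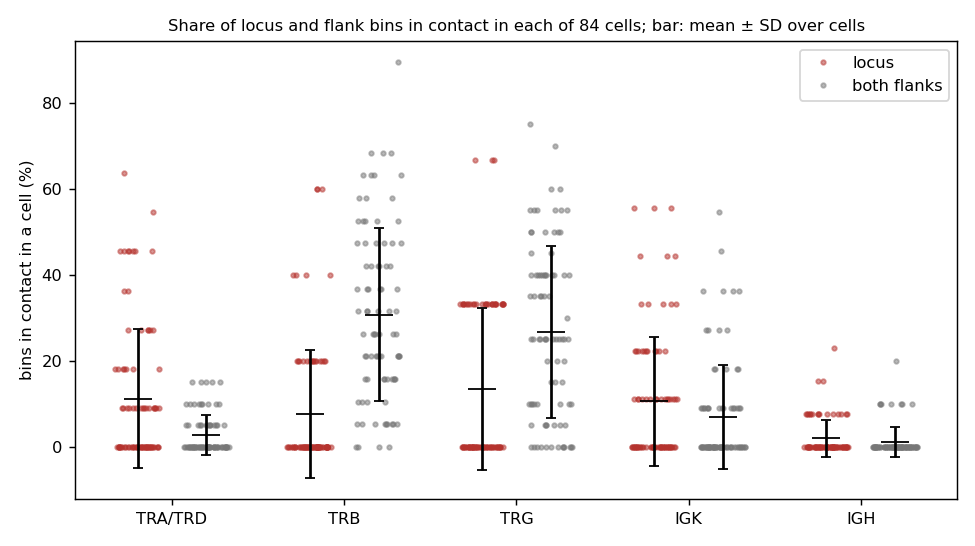
Percent of bins in contact in each of the 84 cells (points) for each locus (red) and its 2 flanks together (grey), with the mean and SD over cells as a bar. The points of TRB and TRG lie mostly at 0 or 1 bin while those of their flanks are spread up to 89.5 and 75.0%, and most points of IGH and its flank lie at 0.

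The flanks had at least 1 contact in 80 of 84 cells for TRB, 71 for TRG and 28 for TRA/TRD. With flanks in contact in nearly every cell, the overlap for TRB carries little information. All 22 cells with a contact in TRB also had one in its flanks, 58 had a contact in the flanks alone and 4 had neither. TRG was alike, with 30 cells in both, 1 in the locus alone, 41 in the flanks alone and 12 in neither. TRA/TRD differed in these counts, with 16 cells in both, 24 in the locus alone, 12 in the flanks alone and 32 in neither. IGK had 21 cells in both and 17 in the locus alone, and IGH had 3 in both and 15 in the locus alone. Flanks that are often in contact meet any locus in the same cell more often, and that part was not separated.

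Correlations between the contact share of a locus and that of its flanks are given as a description over 84 cells, whose values share library and depth. After a linear correction for each cell's contact share in the rest of the genome, r was 0.578 for IGK, 0.521 for TRG, 0.515 for TRB, 0.306 for TRA/TRD and 0.124 for IGH. For TRA/TRD it was 0.307 with the flank below and 0.125 with the flank above. Adjacent bins within a locus had a mean r of 0.402 in TRA/TRD over 9 pairs, 0.206 in TRB, 0.164 in IGK, 0.0780 in TRG and 0.0568 in IGH. In TRA/TRD the bins 22400001 to 22500000 and 22500001 to 22600000 had the highest uncorrected r, 0.643, with 12 cells in contact at both.

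The 10 pairs of loci had corrected r from -0.131 for TRA/TRD with TRG to 0.215 for TRB with IGH, with a mean of 0.0375. TRA/TRD and IGH, at opposite ends of chromosome 14, had r = 0.0860, and TRB and TRG, on the 2 arms of chromosome 7, had r = -0.0424. In sparse calls such low values are no finding. In cells 1 to 29 the mean over pairs was -0.106, and without cells 48, 54 and 56 it was -0.00453. Of the 84 cells, 14 had no contact at any locus, 19 at 1 locus, 30 at 2, 16 at 3, 3 at 4 and 2 at all 5.

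**Figure D4:**
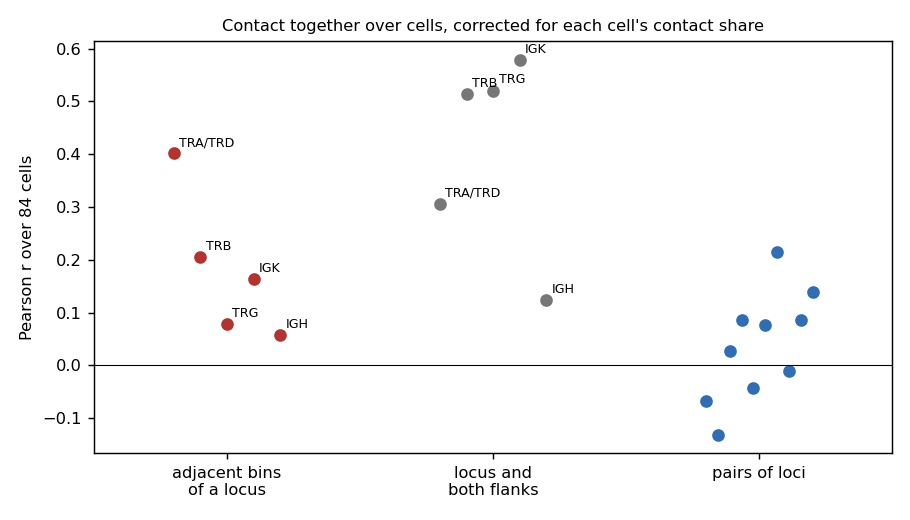
Pearson r over 84 cells of contact, corrected for each cell's contact share, for adjacent bins within each locus (mean over its pairs), for each locus with its flanks, and for the 10 pairs of loci. Values for locus and flanks run from 0.124 to 0.578, and pairs of loci lie between -0.131 and 0.215.

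By the ratios behind the calls IGH was again the lowest locus. The mean ratio over bins was 0.0666 ± 0.106 for IGH, 0.275 ± 0.526 for TRB, 0.372 ± 0.590 for TRA/TRD, 0.497 ± 0.851 for TRG and 0.611 ± 1.48 for IGK (SD, n = 84). Neighbours in this order lie within their SD. IGK, which was below TRG and TRA/TRD by contact frequency, was highest by mean ratio. Its highest single ratio was 65.5, in a bin with an expectation of 18 and 19 reads in all columns. Over all cells and columns TRA/TRD had 2515 reads, TRG 764, TRB 650, IGK 482 and IGH 331. Both columns of each cell are counted, so these totals are not numbers of independent reads. No read at all was found in 7 cells for TRA/TRD, 25 for TRG, 27 for TRB, 27 for IGK and 33 for IGH. Whether a contact was absent or missed in a cell without reads depends on its depth and was not tested.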

How the data were processed

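The tools and build named in the submitters' processing notes are cutadapt, Bowtie2 2.1.0 and hg19. The authors deposited 1 table of observed over expected ratios per 100 kb bin. How the expectation was made is not given in the sources used here. Samples 81, 82, 167 and 168 were not analysed. Of 30376 bins, 3792 had no value, 170 were 0 in every column and 26414 were covered.

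Values in a bin are whole multiples of a step times a factor per column. 99.98% of values above 0 came out whole within 0.02, expectations ran up to 592, and no bin had more reads than its expectation. The working back was tested on simulated data. Columns were compared by the correlation of log2(reads + 1) and by a chi-square divided by its number of bins, using bins of 10 reads or more. All 84 pairs were under 1, and 0 of 13944 other combinations were (lowest 1.41).

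The ratios of each pair were therefore averaged. No p-value was made from cells. Intervals are exact Clopper-Pearson at 95%, and a count of 0 allows 3 of 84 cells. Repeat PCR reads are not independent molecules. Flank differences were taken within each cell. The loci, limits and alternatives were chosen with earlier results of these data known. All bins were analysed. Named bins are the highest, lowest and end bins of each locus and those without signal, and other bins, cells and flank bins were named after their values were seen. Lists of recombination and lymphoid genes were not placed, since no hg19 annotation was used here. Python 3.11.15, numpy 2.4.6, pandas 2.3.3 and scipy 1.17.1 were used.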

Additional observations from a re-analysis of the deposited data

How the results depend on the processing

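A mean frequency was taken to have moved when it left the exact 95% interval of its value treated as a count of 84 cells. That is the interval of a single bin and does not measure the spread of a mean over bins. Differences were taken to have moved when they left 1 SD over cells. Of 70 mean frequencies under the alternatives listed at the outset 64 stayed. Of 80 differences from flanks 79 kept their direction and stayed within 1 SD. The SD over cells is a wide limit, so this count is a weak check. For TRA/TRD it spans -7.16 to 24.1 points around 8.46, and 3.17 points at a cutoff of 2 counted as unchanged. At a cutoff of 0.5 TRA/TRD was at 20.0% and TRB at 16.9%, and at a cutoff of 2 TRA/TRD was at 4.00%, TRB at 2.38% and TRG at 6.35%, by construction. Without its first and last bin TRG was at 4.76%. With flanks of 2 Mb TRA/TRD was -0.203 points from its flanks. For pairs of loci the mean r was -0.106 over the first 29 cells, a change whose cause was not tested. Chosen after seeing the data were bins with an expectation of at least 100 and any read as contact. Any read gave 40.0% for TRA/TRD, 32.4% for TRB, 36.9% for TRG and 11.3% for IGH, and -6.58 points for IGK against its flanks. TRB lay below its flanks under every alternative run, from -32.3 to -14.2 points, and TRG did, from -22.0 to -5.56. In the 42 cells with most bins above 0 the differences were 10.3 points for TRA/TRD, -26.6 for TRB, -16.0 for TRG, 1.39 for IGK and 2.01 for IGH. Cells 1 to 29 had TRB at 11.7% and IGK at 16.5%. Cells 30 to 86 had TRB at 5.45% and IGK at 7.47%. These 2 sets differ in depth. The deeper column held 7134 to 90564 reads in cells 1 to 29 and 11390 to 418937 in cells 30 to 86. Whether depth has a part in these differences was not tested. TRG was at 8.73% in odd-numbered and 18.3% in even-numbered cells. No paired analysis was possible because every sample belongs to 1 group, so no replicate numbers link groups. Locus and flanks were compared within each cell. Depth limits frequencies near 0, and low expectations limit 7 of the 9 IGK bins with signal and with them the IGK means.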
